A study of Arabidopsis thaliana with 6 samples.

Results

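The vegetative nucleus (VN) transcriptome of mature Arabidopsis pollen is described here by its 200 most abundant genes, out of 27655 genes measured. All genes were ranked by their mean TPM (a length-scaled share of all transcripts in a library) over 3 VN libraries, and the 200 highest were kept whatever their level in sperm cells (SCs). The VN levels chose these genes and are therefore described, not tested. The last gene kept was CHX08 (AT2G28180), a member of the cation/H+ exchanger family, with 1018, 929 and 811 TPM. The next gene, AT3G02970 of the EXORDIUM-like family, had 891, 1035 and 825 TPM and was left out. Their means of 919 and 917 TPM differed by less than the SD of either gene (104 and 107 TPM, n = 3), so the boundary is a rank and not a step in abundance.

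A pollen grain holds a vegetative cell that encloses the sperm cells, and the vegetative cell grows the pollen tube that carries the sperm to the ovule. The tube extends at its tip, where secreted pectins and the enzymes that modify them, arabinogalactan proteins, RALF peptides and their receptors, calcium, proton pumps, actin and vesicle traffic act together. Transcripts for much of this machinery are stored in the dry grain before germination, and the vegetative nucleus is where they are made.

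Both cell types came from WT plants that carried MGH3p::MGH3-GFP, a sperm histone marker, together with ACT11p::H2B-mRFP, which labels the VN. Plants were grown for 8 weeks in short days (8 h of light) and then in long days (16 h of light), and SCs and VN were separated by FACS from cracked mature pollen. RNA-seq libraries were made with Smart-seq2, with 3 biological replicates for VN and 3 for SC. SCs were sorted as cells and VN as nuclei, so differences of cell type and of compartment cannot be told apart.

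All 3 vegetative markers were detected in every VN library. ACT11, a pollen actin, had 166, 236 and 196.4 TPM in VN and a mean of 17.2 TPM in SC. ANX1 and ANX2, receptor kinases that keep the growing tube intact, had means of 202 and 532 TPM in VN. All 3 were higher in VN (limma on log2(TPM + 1), Benjamini-Hochberg adjusted p = 3.39e-06, 5.65e-07 and 3.93e-07). In the exact permutation test over libraries each gave p = 0.1 (two-sided), the smallest that 3 against 3 libraries allow. None of them was among the 200, and the best placed, ANX2, stood at rank 332. The 10 sperm markers summed to 1978, 3312 and 3597 TPM in VN, of which DAF1 (AT3G62230) alone held 1852, 3174 and 3225 TPM, while they summed to between 126579 and 172811 TPM in SC. Most of the others were highest in VN replicate 3, as MGH3 (61.3, 45.9 and 159 TPM) and DMP9 (14.4, 5.11 and 53.8 TPM). GEX1, DAZ1, DAZ2, HAP2 and DUO1 were also highest there. GEX2 and DMP8, below 1 TPM in every VN library, were not. The 8 green tissue markers summed to between 3.08 and 6.16 TPM in VN, with 5 of them listed at 0 in all 3 libraries. The 8 tapetum markers summed to between 0.0614 and 2.21 TPM, with 6 listed at 0. VN replicate 2 had fewer genes above 0 (10202) than VN replicates 1 and 3 (15289 and 13649). The TPM values keep no read depth, so counting error is unknown.

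Sequences of the most abundant genes are shown first, because the highest ranks were held by short, often intronless genes and by close copies. AGP40, a short arabinogalactan protein, had the highest mean, followed at ranks 3 and 4 by RALFL8 and RALFL9, RALF peptides encoded near each other on chromosome 1. Their coding sequences (RefSeq, TAIR10.1) are each within a single exon and have 189, 249 and 228 bases.
AGP40 coding sequence, gene at chr3:7308504-7308962, minus strand: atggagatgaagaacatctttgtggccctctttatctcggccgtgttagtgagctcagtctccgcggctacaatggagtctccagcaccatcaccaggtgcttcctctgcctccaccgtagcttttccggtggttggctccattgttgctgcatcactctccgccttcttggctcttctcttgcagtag
RALFL8 coding sequence, gene at chr1:22714921-22715448, minus strand: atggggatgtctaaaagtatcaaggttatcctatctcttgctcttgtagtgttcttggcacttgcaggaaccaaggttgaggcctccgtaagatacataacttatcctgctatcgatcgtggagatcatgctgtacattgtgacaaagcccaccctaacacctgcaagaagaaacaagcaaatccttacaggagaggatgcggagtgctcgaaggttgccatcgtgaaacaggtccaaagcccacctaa
RALFL9 coding sequence, gene at chr1:22717060-22717610, minus strand: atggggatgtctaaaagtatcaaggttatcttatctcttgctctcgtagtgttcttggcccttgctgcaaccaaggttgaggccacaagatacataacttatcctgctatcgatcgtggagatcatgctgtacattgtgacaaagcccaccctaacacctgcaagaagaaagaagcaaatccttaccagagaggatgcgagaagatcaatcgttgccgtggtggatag
The RALFL8 and RALFL9 coding sequences matched at 207 of 249 aligned positions (83.1%), and at 94.1% over an alignable stretch of 202 bases. Reads from identical parts of that stretch could be assigned to either gene. Read assignment was not examined, so how far this shifts the levels of the pair is unknown. Both also overlap AT1G61565, annotated on the opposite strand, and Smart-seq2 reads do not keep the strand.

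The sequence ahead of the RALFL8 and RALFL9 starts was also similar, with 179 identical positions in a 260-position alignment of the 250 upstream bases (68.8%). A TATAAA motif starts 30 and 31 bases before their annotated starts, and VGD1, a pectin methylesterase at rank 13, has it at 30 bases. The 80 bases before each start are shown with TATAAA in capitals.
RALFL8 upstream, chr1:22715449-22715528, minus strand: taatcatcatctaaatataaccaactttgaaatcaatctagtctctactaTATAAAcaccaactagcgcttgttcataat
RALFL9 upstream, chr1:22717611-22717690, minus strand: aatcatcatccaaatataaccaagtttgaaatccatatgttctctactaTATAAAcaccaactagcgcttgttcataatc
VGD1 upstream, chr2:19330198-19330277, minus strand: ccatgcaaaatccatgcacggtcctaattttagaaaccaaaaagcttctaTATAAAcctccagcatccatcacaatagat
TATAAA starting 50 to 20 bases before the annotated start, on the gene's strand, was present in 44 of the 200 genes (22%), against 8.94% of all 27443 protein-coding genes with sequence. Within the 200 the share was 34% at ranks 1 to 50 and 18% at ranks 51 to 200. It was 10.2% at ranks 201 to 1000 and 9% among the 200 highest genes of SC. Searched anywhere in the 250 bases on either strand, TATAAA was found in 51% of the 200 and in 47.4% of all genes, a smaller difference than in the narrow window.

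A further search used the MEF2-type CArG box, the 10-base element that MIKC*-type MADS-box complexes of pollen are known to bind. The element reads alike on both strands. It was found within 250 bases of the start in 29 of the 200 genes (14.5%), against 2.15% of all protein-coding genes. The share was 30% at ranks 1 to 50, 9.33% at ranks 51 to 200 and 6.88% at ranks 201 to 1000, and it was 3.5% among the 200 highest genes of SC. Of the 30 boxes, 2 overlapped a TATAAA on either strand, and 8 of the 29 genes also had TATAAA in the narrow window. A match is a description of these letters and not a tested binding site. The 16 boxes in the 15 genes at ranks 1 to 50 are shown in capitals with up to 20 bases on either side, numbered from the first base of the box to the annotated start (RefSeq, TAIR10.1).
AGP40 (AT3G20865), chr3:7309061-7309110, minus strand, 128 bases before the start: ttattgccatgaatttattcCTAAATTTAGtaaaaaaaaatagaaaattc
TPX2 (AT1G65970), chr1:24558340-24558389, minus strand, 47 bases before the start: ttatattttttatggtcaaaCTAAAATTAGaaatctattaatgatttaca
AT3G01270, chr3:84944-84993, minus strand, 72 bases before the start: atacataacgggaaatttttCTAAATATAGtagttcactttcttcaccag
AT3G28750, chr3:10792875-10792924, minus strand, 58 bases before the start: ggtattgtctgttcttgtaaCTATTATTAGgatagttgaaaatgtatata
VGD1 (AT2G47040), chr2:19330225-19330274, minus strand, 57 bases before the start: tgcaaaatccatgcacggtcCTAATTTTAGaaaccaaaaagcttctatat
AT3G01230, chr3:77616-77661, minus strand, 234 bases before the start: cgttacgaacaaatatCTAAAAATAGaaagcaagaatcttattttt
PGA4 (AT1G02790), chr1:612325-612374, minus strand, 30 bases before the start: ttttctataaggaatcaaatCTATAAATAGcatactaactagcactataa
AT5G39880, chr5:15970800-15970849, plus strand, 67 bases before the start: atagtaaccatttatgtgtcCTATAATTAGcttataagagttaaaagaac
AT3G01240, chr3:79219-79268, minus strand, 211 bases before the start: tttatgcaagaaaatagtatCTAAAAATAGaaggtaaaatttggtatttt
AT3G01240, chr3:79062-79111, minus strand, 54 bases before the start: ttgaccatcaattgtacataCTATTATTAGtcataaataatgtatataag
AT5G50030, chr5:20354463-20354512, plus strand, 106 bases before the start: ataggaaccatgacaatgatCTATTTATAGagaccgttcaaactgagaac
AT4G02250, chr4:983761-983810, plus strand, 189 bases before the start: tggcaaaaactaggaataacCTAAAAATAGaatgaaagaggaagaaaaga
AT3G28830, chr3:10830959-10831008, plus strand, 183 bases before the start: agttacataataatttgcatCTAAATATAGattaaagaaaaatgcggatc
AT4G18596, chr4:10238838-10238887, plus strand, 118 bases before the start: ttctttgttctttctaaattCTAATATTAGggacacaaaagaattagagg
AGP6 (AT5G14380), chr5:4636844-4636893, minus strand, 197 bases before the start: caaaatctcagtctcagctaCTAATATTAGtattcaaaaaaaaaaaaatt
ADF7 (AT4G25590), chr4:13060282-13060331, minus strand, 61 bases before the start: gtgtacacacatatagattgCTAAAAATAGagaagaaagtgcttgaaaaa
The set spans the arabinogalactan proteins AGP40 and AGP6, the pectin enzymes VGD1 and PGA4, the peroxidase TPX2 and the actin regulator ADF7, and both AT3G01230 and its neighbour AT3G01240 carry a box. Of the MADS-box genes of this complex, AGL104 had 655, 523 and 415 TPM and AGL65 had 271, 348 and 157 TPM in VN. AGL66 had 165, 216 and 152 TPM and AGL30 had 105, 114 and 129 TPM, while AGL94 had 1.60, 0.0672 and 2.21 TPM. None of these 5 was among the 200.

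**Figure D1:**
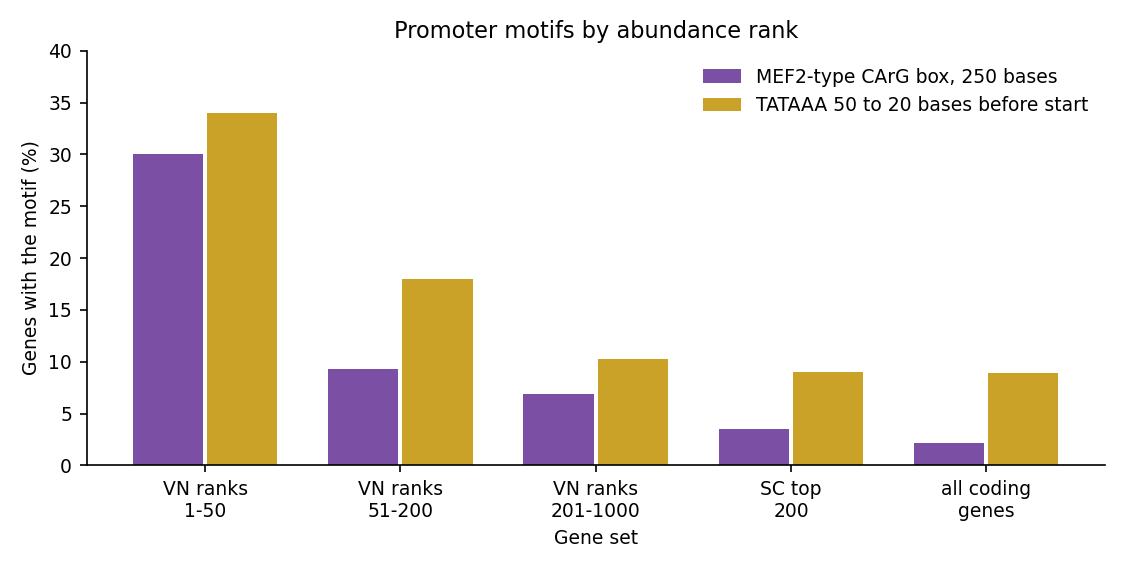
Share of genes (%) with each promoter motif, by abundance rank in VN, in the 200 highest genes of SC and in all protein-coding genes. The highest bars are those of VN ranks 1 to 50, at 30% for the MEF2-type CArG box and 34% for TATAAA in its window.

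The 200 genes held 58.3%, 60.7% and 63.4% of all TPM in VN replicates 1, 2 and 3 (60.8% ± 2.59, SD, n = 3). The 10 highest held 13.7% ± 1.24, the 50 highest 36.3% ± 2.92 and the 100 highest 48.4% ± 2.95. Mean abundance fell 19.7-fold, from 18122 TPM at rank 1 to 919 TPM at rank 200. A total of 9311 genes had a mean of at least 1 TPM in VN. Libraries reached 50% of their TPM with 127, 111 and 90 genes. VN was less concentrated than SC, where each library's own 200 highest genes held 77.8% to 80.2% of TPM against 58.5% to 63.7% in VN, with no overlap between the groups (exact permutation test, two-sided, p = 0.1, the smallest possible).

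**Figure D2:**
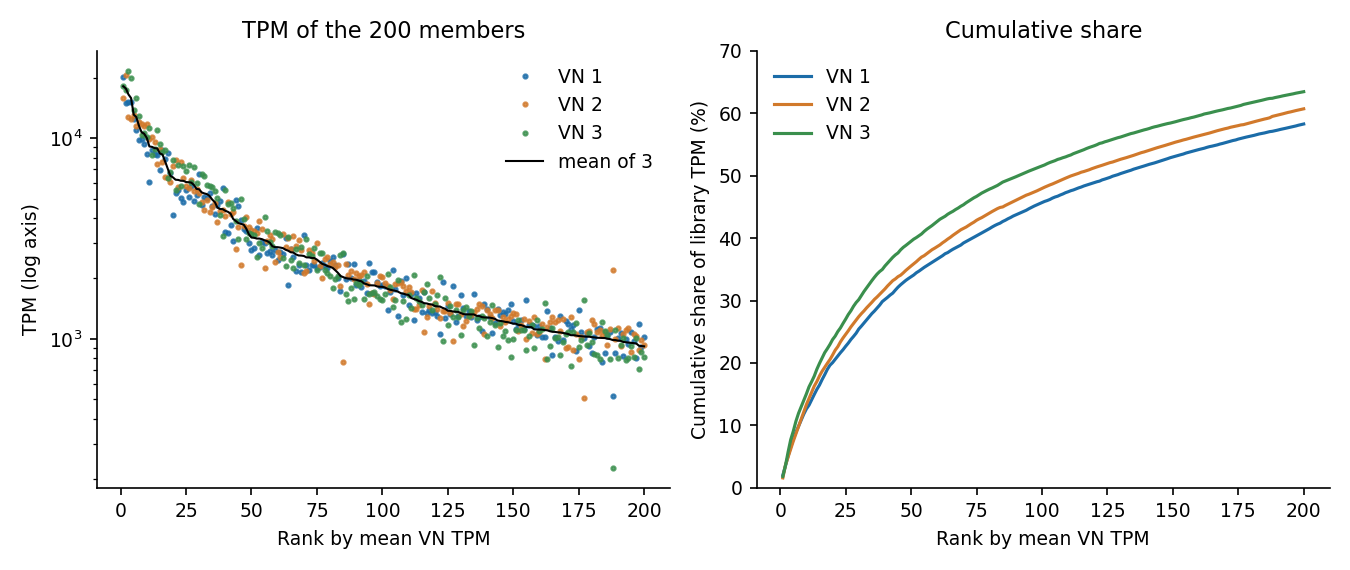
Left, TPM (log axis) of the 200 genes against rank by mean, with a point for each VN library and a line for the mean. Right, cumulative share of library TPM (%), which reaches 58.3%, 60.7% and 63.4% in VN 1, 2 and 3.

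The gene at the head of the list differed between libraries. AGP40 was highest in VN replicate 1, with 20242 TPM against 15885 and 18238 in the others. The SKU5-similar protein sks13 (AT3G13400), of a family of multicopper-oxidase-like wall proteins, was highest in VN replicate 2 and had 14990, 20628 and 17401 TPM. RALFL8 was highest in VN replicate 3 and had 15063, 12740 and 21682 TPM. The ranges of these 3 genes overlapped, with means of 18122 ± 2181, 17673 ± 2829 and 16495 ± 4639.7 TPM, so their order is not fixed by 3 libraries. RALFL9 followed RALFL8 closely, with 15199.8, 12465 and 19812 TPM. TPX2 (AT1G65970), a thioredoxin-dependent peroxidase at rank 5, varied little, with 12454, 13099.5 and 13726 TPM.

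Of the 25 genes at ranks 6 to 30, 11 were wall proteins and 10 fell in the class with no named function. AGP11, an arabinogalactan protein of pollen and pollen tubes, had 10941, 11458 and 15783 TPM. AT5G45880 of the Pollen Ole e 1 allergen family stood at rank 7 with a mean of 11540.5 TPM, the pectate lyase AT3G01270 at rank 8 with 10704 TPM and the inhibitor-family protein AT2G47050 at rank 10 with 10023.5 TPM. The polygalacturonase-like AT3G07820 and PGA4, which belong to the enzymes that cut pectin, had means of 9043 and 8388 TPM. VGD1, required for normal tube growth through the style, had 8351, 9535 and 8860 TPM. The pectin methylesterases PME50 and PME48 had means of 6207 and 6043 TPM. PRXIID, a peroxiredoxin near-identical to TPX2, had 6495 TPM, and the carbonic anhydrase gene ATACA3 had 6135 TPM.

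Genes of the class with no named function stood among them, some of them with a family or domain name. AT1G78460, described as a SOUL heme-binding protein, had 9386, 11549 and 10608 TPM. AT3G28750, described as hypothetical, had 6063, 9917 and 11284 TPM, a wider spread with VN replicate 1 lowest. BCP1, the homolog of a Brassica pollen protein, had 7906, 6369 and 8689 TPM. AT3G49540 (8282 TPM), AT2G41905 (7040 TPM), AT5G39880 (6375 TPM), the SAUR-like AT3G20220 (6192 TPM), the cupin AT5G26700 (6128 TPM), AT5G54095 (5586 TPM) and AT5G19473 (5562 TPM) complete this group by their means.

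**Figure D3:**
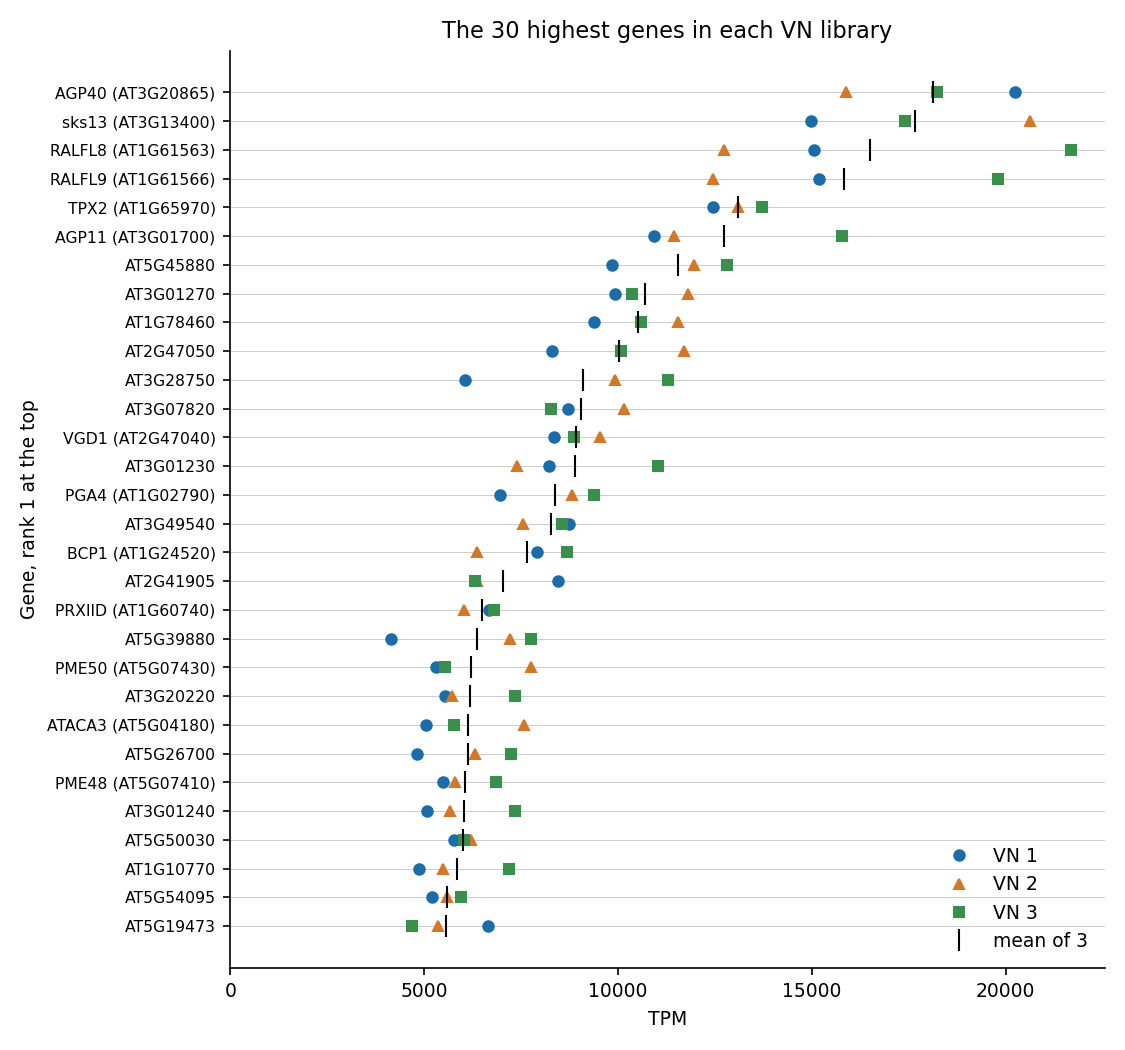
TPM of the 30 highest genes in each VN library, with the mean of 3 as a vertical bar and rank 1 at the top. The first gene differs between the libraries, and RALFL8 and RALFL9 lie highest in VN 3 and lowest in VN 2.

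Grouped by description, 69 of the 200 genes belonged to the cell wall or to secreted wall proteins and held 29.3% ± 1.93 of VN TPM. Their number fell with rank, with 26 of ranks 1 to 50, 21 of ranks 51 to 100, 16 of ranks 101 to 150 and 6 of ranks 151 to 200. Another 42 genes fell in the class with no named function and held 13.5% ± 0.972. Some of these have a family or domain name, such as the SOUL heme-binding AT1G78460, so they are not all unknown genes. Together the 111 genes of both classes held 42.8% ± 2.88 of all VN TPM.

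Genes classed as signalling lay lower, and this class leaves out the RALF peptides, which were counted with the secreted wall proteins. The 25 genes of calcium, receptor and protein kinase signalling held 3.29% ± 0.185 of TPM, with none at ranks 1 to 50, 2 at ranks 51 to 100, 10 at ranks 101 to 150 and 13 at ranks 151 to 200. Metabolism had 14 genes (2.85% ± 0.320), membrane traffic and lipid signalling 13 (2.18% ± 0.156), translation and RNA 10 (2.71% ± 0.234) and protein turnover 9 (1.40% ± 0.111). Stress and protein folding had 6 genes and 3.15% ± 0.263, and TPX2, PRXIID and SAG21, a late embryogenesis abundant protein, were within the 31 highest. Transport across membranes had 6 genes (1.001% ± 0.0997), the cytoskeleton 4 (0.936% ± 0.0922) and chromatin and transcription 2 (0.514% ± 0.0644).

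**Figure D4:**
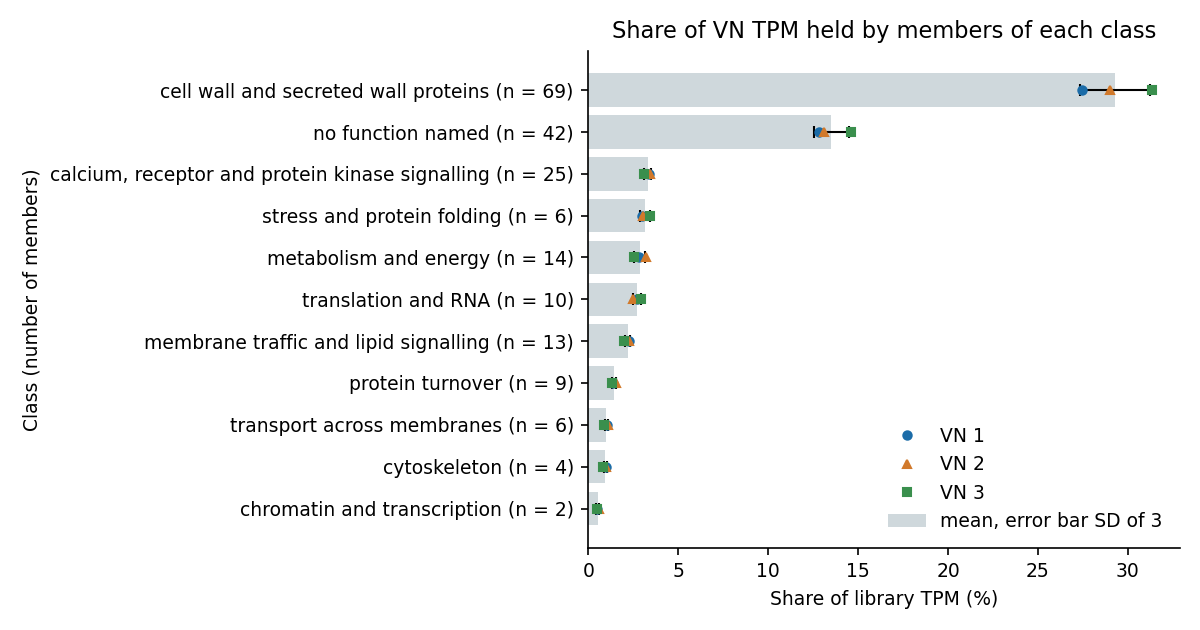
Share of library TPM (%) held by the members of each class, as the mean of 3 VN libraries with SD bars and a point for each library. Wall proteins hold 29.3%, the class with no named function 13.5%, and every other class at most 3.29%.

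The pectin enzymes came from several families. Of 109 genes in the table described as invertase or pectin methylesterase inhibitor superfamily, a family name that includes pectin methylesterases themselves, 12 were among the 200 and held 5.26% ± 0.465 of TPM, 93.4% of what the whole family held. Of 102 pectin lyase-like genes, 9 were members with 3.63% ± 0.207, and of 6 pectate lyases 4 were members with 1.52% ± 0.117. Across the whole table, the 200 genes are 0.723% of genes and held 60.8% of TPM. Members are the highest genes by choice, so a high share of a family's TPM follows in part from that choice. Next to VGD1, its relatives VGDH1 and VGDH2 had means of 3712 and 2532 TPM. The inhibitor-family gene APPB1 had a mean of 3190 TPM.

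Secreted peptides and proteoglycans reached the highest levels. Of 37 RALF genes, 7 were members, and they held 4.48% ± 0.973 of TPM. That was 98.1% of the total of the family, against 60.8% for the 200 over all genes, and is likewise a description. Besides RALFL8 and RALFL9, RALFL15 had 3396, 4100 and 5543 TPM and RALFL26 had 4917, 2794 and 3887 TPM. RALFL4 and RALFL19, the peptides known to keep the tube wall intact by binding ANX and BUPS receptors, had means of 1847 and 1369 TPM, well below RALFL8. Of 30 genes described as arabinogalactan proteins, 6 were members with 4.08% ± 0.410, a count by wording. It leaves out AT2G41905 (7040 TPM), whose coding sequence matched that of AGP23 at 83.1% over 189 aligned bases. AGP6, which acts with AGP11 in pollen, had 3088, 4308 and 4488 TPM. AGP41, AGP23 and AGP24 had means of 2548, 1850.5 and 1567 TPM. Of 18 SKU5-similar genes, 4 were members, in which sks13 was followed by sks11 (2702 TPM), sks14 (2604 TPM) and sks12 (1600.3 TPM). Other small secreted proteins were 3 of 27 Ole e 1 family genes (1.85% ± 0.220) and 3 of 65 S1 self-incompatibility-like genes (0.544% ± 0.0829).

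Receptors, kinases and their co-receptors were present at lower levels. Genes described as a protein kinase or receptor kinase numbered 16 of 891 and held 2.002% ± 0.181, a count by wording that leaves out MPK17. The highest kinase was AT3G61160, with 2727, 3281 and 3036 TPM. CML6, a calmodulin-like calcium sensor, had 2480, 2725 and 3386 TPM. MPK17, a MAP kinase, had 2217, 1572 and 1448 TPM, with VN replicate 1 highest. CAR9, of the calcium-dependent lipid-binding family, had a mean of 1530 TPM. LLG2, a GPI-anchored co-receptor of the RALF receptors, had 1269, 1370 and 1601 TPM, more than BUPS1 (AT4G39110), the receptor kinase partner of ANX1 and ANX2, with 1074, 928 and 935 TPM. PRK2, a receptor kinase that acts upstream of ROP GTPases in the tube, had a mean of 1115 TPM and ROPGEF9, an activator of ROPs, 1078 TPM. CPK24, a calcium-dependent kinase of pollen, had 1338, 1347 and 1453 TPM.

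Among the pumps and carriers, the plasma membrane proton pump AHA8 (HA8, AT3G42640) had 3041, 3547 and 2829 TPM. The oligopeptide transporter OPT1 and the exchanger CHX23 had means of 1937 and 1826 TPM. STP11, a monosaccharide carrier, had 982, 1059 and 814 TPM. Relatives differed widely, since AHA6 and AHA9 had means of 11.2 and 7.003 TPM and STP9 1.65 TPM.

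The actin regulator ADF7, which depolymerizes actin filaments, was the highest cytoskeleton gene, with 4579, 3604 and 3141 TPM. The alpha tubulin TUA1 had 2558, 3264 and 2255 TPM, PLIM2A, an actin-binding LIM protein, 1691, 1872 and 2057 TPM, and ACT12 had 1019, 1193 and 842 TPM. Of the SEC14-like lipid transfer proteins, 5 of 34 were members, led by ATSEC14 (AT4G39180), with 5630, 4395 and 3269 TPM. Proteins of lipid and vesicle traffic included AT4G27580 (2366 TPM), the PH-domain protein AT3G54800 (2199 TPM) and AT1G68110, with an ENTH-type domain (1719 TPM).

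The class of translation and RNA had 10 members, and chromatin and transcription had 2. The neighbouring AT3G01230 and AT3G01240, described as splicing regulatory glutamine/lysine-rich-like, had means of 8884 and 6030 TPM. ALY3, an RNA export factor, had 3171, 2859 and 2318 TPM, and ATU2AF65A, a subunit of the U2 auxiliary splicing factor, had 2364, 2078 and 1552 TPM. Ribosomal proteins contributed 1 of 373 genes (0.268%) and histones 0 of 51, against 0.723% over all genes. Counts this small are not read as a result. The 2 genes of the transcription class were the bZIP gene AT1G35490, with 2610, 3863 and 3010 TPM, and AGL18, a MADS-box factor at rank 89 with 2359, 1986 and 1585 TPM. Organelle genomes had no member, and their 210 genes held between 0.000694% and 0.00969% of TPM.

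Among the other classes, MUB1, a membrane-anchored ubiquitin-fold protein, had 3569, 3369 and 2547 TPM, and the carboxypeptidase scpl38 had a mean of 1191 TPM. In metabolism, AT5G19580, related to glyoxal oxidase, had a mean of 3321 TPM, MIOX4, an inositol oxygenase, 2342 TPM and GDH2, a glutamate dehydrogenase, 2259 TPM. HVA22J and the peroxidase PER65 had means of 2893 and 2601 TPM.

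Of 86 genes listed for tip growth, with pollen transcription factors among them, 22 were members. These were 9 of 12 wall proteins, 6 of 21 signalling genes (a list that, unlike the class above, holds RALFL4, RALFL19 and LRX8), 3 of 18 calcium and ion transport genes, 3 of 13 cytoskeleton genes, 0 of 9 membrane traffic genes and 1 of 13 transcription factors. The median rank of the listed genes was 80 for wall proteins, 334 for signalling, 529 for the cytoskeleton, 668.5 for ion transport, 890 for traffic and 1024 for transcription factors. LRX8 (AT3G19020), a leucine-rich repeat extensin that binds RALF peptides, stood at rank 197 with 805, 1038 and 1006 TPM. Its relative LRX10 was at rank 209 with a mean of 879 TPM, and the GTPase ROP1 at rank 242 with 741 TPM.

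Across the 3 libraries, 167 of the 200 genes were within the 200 highest of every library, and 198 within the 250 highest. The coefficient of variation (CV) had a median of 13.9%, with quartiles of 9.52% and 19.8%. The highest of the 3 values was under 2 times the lowest for all but 4 genes. Ranks over the 200 genes were alike between libraries, with Spearman correlations across genes of 0.897 to 0.908. Members are genes of the same libraries and not independent points.

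The most even genes were spread over classes. AT1G01310, of the CAP family of secreted proteins, had 1711, 1758 and 1807 TPM, a CV of 2.74%. The glycosyl hydrolase AT3G55430 had 1374, 1296 and 1306 TPM. AT2G02720, a pectate lyase, AT5G50030, AT4G34750, AT4G25780, WL4 (a CBL-interacting kinase), CPK24, TPX2 and SBT3.16, a subtilase, completed the 10 lowest, with CVs up to 4.96%.

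Some of the least even genes were short. AT5G09711, with an annotated mRNA of 138 bases, had 521, 2213 and 228 TPM (CV 108.5%). AT2G01021, of 102 bases, had 2650, 766 and 2687 TPM, and it lies at chr2:6571-6672 of TAIR10.1, close to ribosomal RNA genes. AT4G04078, of 108 bases, had 3928, 2337 and 4956 TPM, and the late embryogenesis abundant gene AT5G38760 had 1012, 508 and 1568 TPM. These 4 genes were the ones with a range of 2 times or more. AT5G09711 overlaps AT5G09710 on the same strand by 137 bases. The other genes of the 10 highest CVs were AT1G34095, AT3G22510, AT3G55180, RALFL19, UBC9 and AT5G39880. Their annotated mRNAs were longer, from 612 bases (AT1G34095) to 1458 bases (AT5G39880).

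Length moved with these differences. Over the 200 genes, the ratio of a library to the mean had a Spearman correlation with mRNA length of 0.16 in VN replicate 1, 0.44 in VN replicate 2 and -0.45 in VN replicate 3. For the 22 genes with a coding sequence of 300 bases or fewer the median ratio was 0.834 in VN replicate 2 and 1.16 in VN replicate 3. For the 51 genes above 1500 bases it was 1.05 and 0.924. The median CV was 24.1% for the former and 12.2% for the latter. The part of length in the spread between libraries was not tested.

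**Figure D5:**
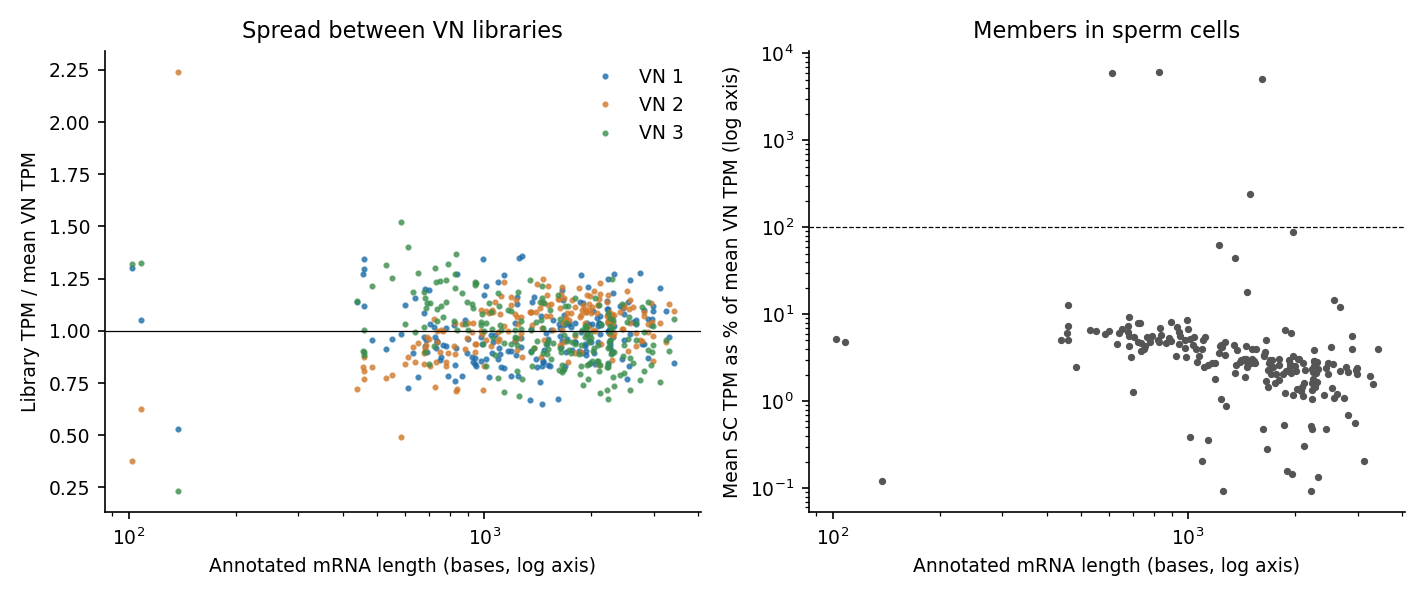
Left, TPM of each library divided by the mean of 3 against annotated mRNA length (log axis). Right, mean SC TPM as a percentage of mean VN TPM (log axis) against mRNA length, with 100% dashed. The shortest genes scatter most between libraries, and 4 genes lie above 100%.

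The annotated structure of the 200 was compared with that of other expressed genes. Single-exon genes made up 54 of the 200 (27%), against 15.3% of the other genes with a mean of at least 1 TPM. The share with a coding sequence up to 300 bases was 11% against 7.08%, while the median coding length was similar, at 1021.5 and 1047 bases. At ranks 1 to 50 the median coding length was 522 bases, and at ranks 151 to 200 it was 1314 bases. Over the 200 genes, mean TPM and mRNA length had a Spearman correlation of -0.38. TPM divides by length, so length and level are not independent. A gene annotated on the opposite strand overlapped 43 members (21.5%), against 27.9% of the other genes, and reads of such pairs cannot be told apart without strand.

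Chromosome 3 carried 58 of the 200 genes (29%), against 20.3% of the other genes with a mean of at least 1 TPM. A total of 19 members (9.5%) formed 9 groups of neighbours with no protein-coding gene between them. The group of VGDH1, VGD1 and AT2G47050, all inhibitor or methylesterase family genes on chromosome 2, summed to 22651 TPM. The sks11 and sks13 pair summed to 20375 TPM, and the AT3G01230 and AT3G01240 pair to 14914 TPM. RALFL25 and RALFL26, the sks14 and sks12 pair, VGDH2 with AT3G62180, the DUF1216 genes AT3G28790 and AT3G28810, PME50 with GDH2 and RBK2 with AT3G05150 formed the others.

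Close copies can make the level of a gene uncertain, and read assignment was not examined. Of the 200, 18 had another gene at 90% identity or more over at least 80% of the coding sequence, and for 10 the closest was also a member. TPX2 and PRXIID were 96.3% identical over 489 bases, PPME1 and PME48 96.6%, AT3G07850 and AT3G14040 97.2%, and AT5G26692 and AT5G26717 97.6%. For the other 8 the partner was not a member, so its mean was lower by the ranking itself. The partner AT3G28820 had 12.1 TPM beside AT3G28810 (1175 TPM), while AT5G58050 had 855 TPM beside AT5G58170 (1093 TPM). AT3G04700 shared 99.8% of the aligned bases with AT3G04710, which overlaps it on the same strand by 1157 bases.

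Most of the 200 genes were at low levels in SC relative to VN. Over the 200, the mean SC TPM was a median of 2.96% of the mean VN TPM, with quartiles of 2.03% and 4.999%. It was under 1% for 20 genes, from 1% to 10% for 169 and 10% or more for 11. In the limma fit, 194 of the 200 were called higher in VN, against 35.6% of the 10955 genes tested, and 4 higher in SC, against 29.2%. They had a median log2 fold change (VN minus SC) of 5.07, against 0.55 for all tested genes. High VN values chose the members, so these counts are a description. Over the 86 genes listed for tip growth, 84 were tested, and 80 were called higher in VN and 2 higher in SC, with the same 35.6% as background. These 2 were the aquaporin TIP5;1 and WRKY2. The list was chosen with earlier results of these data known and holds 22 members, so its counts are a description too. All 21 signalling genes, all 12 wall genes and all 13 cytoskeleton genes were called higher in VN, as were 16 of 17 ion transport genes, 7 of 8 traffic genes and 11 of 13 transcription factors.

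The percentage in SC varied with gene length. Its Spearman correlation across the 200 genes was -0.58 with coding length and -0.52 with the number of exons. ATSEC14 had a mean of 5.94 TPM in SC against 4431 TPM in VN (log2 fold change 9.30, SE 0.25). High VN values chose this gene, so the change is a description. ROPGEF9 had 1.56 TPM in SC and 1078 TPM in VN, ADF7 14.6 and 3775 TPM. AT4G20700 and AT3G55180, chosen after their values were seen, stood at 0.0917% and 0.0921%.

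Of the 200 genes, 20 (10%) were also among the 200 highest of SC. For 13 of these, all at VN ranks 1 to 18, the SC mean was under 10% of the VN mean and lay between 419 TPM (AT1G78460) and 1329 TPM (AGP40). The 200 highest genes of SC stood in VN at a median of 2.83% of their SC level. DAF1, an F-box protein gene of sperm, had 1852, 3174 and 3225 TPM in VN and a mean of 139631 TPM in SC, so VN held 1.97% of the SC level. AT1G34095 had 1054, 1266 and 2031 TPM in VN and AT4G11543 had 769, 1047 and 1219 TPM, which were 1.69% and 1.62% of their SC levels. These 3 genes, the highest 3 of SC, all lay in VN below the median percentage above, and the part of SC material in these VN values was not tested. In SC they made up most of the 32.1% ± 3.66 of TPM that the 200 held, and without the 4 genes higher in SC the others held 2.68% to 2.92%.

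MIOX4, PBL17, FAH2 and HVA22J were abundant in both cell types. MIOX4 had 2321, 2509 and 2197 TPM in VN and 5868, 5681 and 5395 TPM in SC, with no overlap (log2 fold change -1.27, SE 0.10, adjusted p = 1.12e-05 with limma). PBL17 (AT2G07180), a receptor-like cytoplasmic kinase, had 1302, 1501 and 1288 TPM in VN and 1150, 1277 and 1184 TPM in SC, and the difference of 0.18 (SE 0.13) did not pass the test (adjusted p = 0.22 with limma). Its direction turned with quantile normalization (-0.91) and with centring on the library median (-0.34). FAH2, a fatty acid hydroxylase, had means of 1304 and 824 TPM, a log2 difference of 0.66 that was below the threshold of 1 and turned to -0.47 with quantile normalization. HVA22J had 2610, 3158 and 2911 TPM in VN and a mean of 1292 TPM in SC. Its log2 fold change of 1.16 (SE 0.12) was called higher in VN with limma, a description, since high VN values chose it. That call was lost with quantile normalization (0.06) and with centring on the library median (0.64).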

How the data were processed

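RNA-seq of 3 VN and 3 SC libraries was analysed from a deposited table of TPM values per gene. Per the labels, the submitters' processing notes name Trim Galore, Salmon and the TAIR10 build, and the authors' methods describe a transcript assembly. How transcripts were summed into genes is not given in the sources used here. Each library sums to 1000000 TPM, which keeps no read depth, so no counting interval was computed. A listed 0 may be a failed estimate. Replicates are the 3 biological replicates of each group.

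Genes were ranked by mean TPM of the VN libraries. Gene classes came from keywords in the table's descriptions, with 21 classes corrected by hand and 17 family patterns set after the members were seen. Members and lists were chosen with earlier results of these data known. Genes that reached 1 TPM in 2 or more of the 6 libraries were compared with limma 3.58.1 (R 4.3.3) on log2(TPM + 1) with a mean-variance trend, two-sided. A gene was called when its fold change exceeded 1 on the log2 scale and its p, adjusted by Benjamini-Hochberg, was below 0.01. The fold change is on the log2(TPM + 1) scale, which understates change in low genes. The fit was tested on simulated data. Named genes were the 30 highest, the 4 highest of each class, the first gene of each library, the 10 highest and 10 lowest CVs, members shared with the 200 highest of SC, the genes around rank 200, listed genes and neighbours. Families, close copies, promoter motifs, their split by rank and genes outside this rule were picked after values were seen. Coordinates and sequences are from TAIR10.1 (RefSeq), with blastn 2.17.0 for copies. Figures used matplotlib 3.10.9 (Python 3.11.15). Alternatives are in the closing section.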

Additional observations from a re-analysis of the deposited data

How the results depend on the processing

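The share of TPM held by the 200 genes stayed between 59.5% and 62.1% when each VN replicate was left out and at 60.6% to 60.8% under the other rankings and without organelle genes. Of the 200, 194 or more were kept when a VN replicate was left out, 195 with the median, 198 with mean log2(TPM + 1) and 191 with the lowest value. Without the 4 genes higher in SC, chosen after seeing the data, the share was 60.9%. The 20 genes shared with SC became 17 to 20 under other rankings and 18 to 22 with a library left out. In the limma fits, 193 or 194 members were called higher in VN under every alternative, and 4 higher in SC. Calls over all genes ranged from 5845 (no filter) to 7351 (quantile normalization), and were 6049 to 7284 with a library left out. With the replicate block, 6927 genes were called against 7105, with the same 194, 4 and 80 counts. The labels do not say whether replicate numbers pair VN and SC libraries. Deviation correlations between libraries of the same number were 0.0085, -0.035 and -0.019. Such values cannot decide it, since noise of each library also lowers them. Centring on library medians moved the median log2 fold change of all genes from 0.55 to 0.03 and that of the members from 5.07 to 4.55. Of the gene values tested under the alternatives, 2 lost a call, both of HVA22J, which fell to 0.06 with quantile normalization and 0.64 with centring. Another 3 changed sign, of genes called neither in the main comparison nor under those settings. These were PBL17 at -0.91 (quantile) and -0.34 (centring) and FAH2 at -0.47 (quantile). Depth is unknown for TPM, so its limit on low values could not be given.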
